A study of Mus musculus with 2 samples.

Results

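The mitochondrial genome of the mouse carries 37 annotated genes, and they are described here as measured in the embryonic liver. They were taken as every gene whose symbol starts with mt-, which gave 37 of the 69691 entries of the deposited gene tables and 37 of 43346 mouse genes. They comprise 13 protein-coding genes, 2 ribosomal RNA (rRNA) genes and 22 transfer RNA (tRNA) genes, all on chromosome M of mm10. The rule used the symbol and no measured value, but it was set with earlier results of these data known.

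Total RNA was sequenced from healthy livers of B6NCrl mouse embryos at embryonic day 12.5, in 2 libraries that form 1 group with no treatment and no altered gene. Replicate 1 was a pool of 120 embryos and replicate 2 a pool of 88, each of mixed sex, so that each value is an average over many animals and over all cell types of the organ. Per the labels, RNA in a size range above 200 was used, with an input of 10 ng for each library, and spike-in RNA was added. With 1 group, levels, their order and the ratio between the pools are given, and no test was possible.

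Mitochondria keep a small circular genome whose genes are transcribed from both strands as long precursors. The tRNAs lie between most of the other genes, and their excision frees the mature rRNAs and mRNAs. The proteins are core subunits of the respiratory chain and of ATP synthase, and all other subunits, like the enzymes that copy, transcribe and translate the mitochondrial genome, are encoded in the nucleus. Pieces of the mitochondrial genome have been copied into nuclear chromosomes, where they are annotated as pseudogenes.

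The libraries held 37.6 M and 34.7 M expected counts, the reads estimated for each gene when a read that matches several genes is divided among them. Levels are given as TPM, which scales the reads by the length a gene can be read over (its effective length) and sums to a fixed total over each library, so that it can be compared between genes. A floor of 3 reads was 0.0953 TPM in replicate 1 and 0.103 TPM in replicate 2 for an effective length of 1000 nt. The markers of liver and blood cells were present in both libraries. The 4 hepatoblast markers (Afp, Alb, Trf, Apoa1) summed to 10033 and 9801 TPM and the 3 erythroid markers (Klf1, Slc4a1, Hbb-bt) to 47508 and 48025 TPM. Most of the erythroid sum was Hbb-bt alone, at 46234 and 46734 TPM, so the sums do not compare cell numbers. Of cells rich in mitochondria from other organs, the 4 heart markers (Myl7, Tnnt2, Nppa, Actc1) summed to 29.97 and 41.3 TPM and the 4 skeletal muscle markers (Myog, Myod1, Actc1, Tnnt1) to 21.1 and 38.7 TPM, none of them at 0. Their part in the mitochondrial values was not tested.

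The mitochondrial genes made up 1.88% of all TPM in replicate 1 and 1.91% in replicate 2 (1.89% ± 0.0187, SD, n = 2). As a share of reads, which is not scaled by length, they took 1.197% and 1.214% (1.21% ± 0.0122, SD, n = 2). In such bulk RNA, fewer cells of a type and less RNA per cell cannot be told apart. Of the 37 genes, 14 reached 1 TPM in both libraries, as did 29.6% of all mouse genes, and 8 were among the 100 most abundant mouse genes, 5 among the top 50 and 2 among the top 20.

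The gene classes contributed unequally. The 13 protein-coding genes held 332695 and 307689 reads, 74.0% and 73.0% of the mitochondrial reads, and 85.2% and 84.7% of the mitochondrial TPM. The 2 rRNA genes held 116903 and 113980 reads, 26.0% and 27.0% of the reads but 14.8% and 15.3% of the TPM. Per gene, the mean TPM of the rRNA genes was 1.13 and 1.17 times that of the protein-coding genes. This order turned to 0.818 when reads on nuclear copies, described further on, were counted with the protein-coding genes. These ratios describe the libraries, and whether library preparation captured rRNA and mRNA alike was not tested.

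None of the 22 tRNA genes could be measured. They are 59 to 75 nt long, and the tables give an effective length of 0 to every entry of 99 nt or less, which was the case for 28403 entries, all with 0 reads. The zeros of the tRNA genes are thus a property of the tables and carry no information on tRNA levels. The labels also give a size range above 200 for the RNA, which is longer than these genes. The shortest and the longest of them are shown for their size, 14 of the 22 being on the plus and 8 on the minus strand. These sequences, like all others printed here, are from the GENCODE M21 transcripts of mm10, written 5′ to 3′, with bases in capitals only where the text says so.
mt-Ts2, one of the serine tRNA genes (chrM:11613-11671, plus strand, 59 nt): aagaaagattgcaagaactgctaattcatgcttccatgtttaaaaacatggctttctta
mt-Tl1, one of the leucine tRNA genes (chrM:2676-2750, plus strand, 75 nt): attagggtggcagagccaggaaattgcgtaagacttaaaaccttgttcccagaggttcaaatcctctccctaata

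The RNAs of the mitochondrial ribosome differed in measured level from each other, and whether both were captured alike was not tested. mt-Rnr1, the RNA of the small ribosomal subunit (chrM:70-1024, plus strand, 955 nt), had 677 and 650 TPM (663 ± 19.2, SD, n = 2) from 18240 and 16209 reads. mt-Rnr2, the RNA of the large subunit (chrM:1094-2675, plus strand, 1582 nt), had 2114 and 2263 TPM (2188 ± 105) from 98663 and 97771 reads. The ratio of mt-Rnr2 to mt-Rnr1 was 3.12 in replicate 1 and 3.48 in replicate 2, so the large-subunit RNA was higher in both pools and the size of the gap differed between them. Neither rRNA gene shares an identical stretch of 100 nt with any annotated nuclear gene.

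Complex I, NADH dehydrogenase, takes electrons from NADH into the chain, and 7 of its core subunits are mitochondrially encoded. Their levels spanned more than those of any other complex. mt-Nd1 (chrM:2751-3707) had 1790 and 1736 TPM (1763 ± 38.7, SD, n = 2), the highest of the 7. mt-Nd4 (chrM:10167-11544) had 609 and 591 TPM (600.04 ± 13.03) and mt-Nd2 (chrM:3914-4951) had 479 and 449.8 TPM (465 ± 20.8). mt-Nd5 (chrM:11742-13565), the longest protein-coding gene of chromosome M at 1824 nt, had 254 and 246 TPM (249.97 ± 6.23). These genes are on the plus strand and their levels did not overlap between one gene and the next.

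mt-Nd6 (chrM:13552-14070, 519 nt) is the only protein-coding gene on the minus strand. It had 305 and 279 TPM (292 ± 18.4, SD, n = 2) from 4033 and 3415 reads. Its 3′ end overlaps that of mt-Nd5 by 14 nt, and its level was 1.199 and 1.136 times that of mt-Nd5. In reads per nt of gene, mt-Nd6 had 7.77 and 6.58 and mt-Nd5 7.57 and 6.77, so the direction differed between the libraries. The order of these genes in TPM thus depended on the length correction. The labels give no strandedness, so reads of mt-Nd6 cannot be told apart from reads of plus-strand RNA over the same bases. mt-Cytb, the next protein-coding gene along the chromosome and on the plus strand, was 3.89 and 4.43 times the level of mt-Nd6.

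The 2 shortest complex I genes, mt-Nd3 and mt-Nd4l, are nearly whole in a nuclear copy. mt-Nd3 (chrM:9459-9806, 348 nt) had 233 and 189 TPM (211 ± 31.6, SD, n = 2). mt-Nd4l (chrM:9877-10173, 297 nt) was listed at 0 in replicate 1 and had 68.3 TPM, from 394 reads, in replicate 2. The tables also give a posterior mean count, an average over the possible divisions of shared reads, with its SD. For mt-Nd4l it was 78.1 ± 98.7 reads in replicate 1 and 679 ± 414 reads in replicate 2, so that the level of this gene alone was not determined by either library.

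The whole of mt-Nd4l is shown because the copy Gm10222, on chromosome 1, holds its first 294 bases with 100% identity. The 3 bases in capitals, its last codon, are the only ones beyond the aligned stretch.
mt-Nd4l: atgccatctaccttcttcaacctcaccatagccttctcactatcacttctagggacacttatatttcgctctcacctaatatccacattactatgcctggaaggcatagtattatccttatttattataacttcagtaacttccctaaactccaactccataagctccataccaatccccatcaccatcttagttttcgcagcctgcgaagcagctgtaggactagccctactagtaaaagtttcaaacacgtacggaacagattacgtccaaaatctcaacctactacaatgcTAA
Of the windows of 100 nt that can be placed in mt-Nd4l, 98.5% also occur in the copy.

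The copy of mt-Nd3, Gm28438, differs at 1 base, T3C, with the mitochondrial base first and positions counted from 1 at the 5′ end of the gene. The first 33 bases of both genes are shown with that base in capitals.
mt-Nd3 (chrM:9459-9491, plus strand): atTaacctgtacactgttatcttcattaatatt
Gm28438 (chr1:24613087-24613119, minus strand): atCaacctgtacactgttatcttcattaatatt
Because this base lies at the very start of the gene, 97.6% of the 100-nt windows of mt-Nd3 are the same in the copy.

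Complex III, the cytochrome bc1 complex, passes electrons from ubiquinol to cytochrome c and has 1 mitochondrially encoded subunit, cytochrome b. Its gene mt-Cytb (chrM:14145-15288, plus strand, 1144 nt) had 1188 and 1236 TPM (1212 ± 34.3, SD, n = 2) from 39064 and 37639 reads. No identical stretch of 100 nt was shared with an annotated nuclear gene.

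Complex IV, cytochrome c oxidase, reduces oxygen with a catalytic core of 3 mitochondrially encoded subunits. As deposited, their levels lay close to each other. mt-Co1 (chrM:5328-6872, 1545 nt) had 1055 and 1112 TPM (1083 ± 40.5, SD, n = 2), mt-Co2 (chrM:7013-7696, 684 nt) had 1307 and 1425 TPM (1366 ± 84.1) and mt-Co3 (chrM:8607-9390, 784 nt) had 1038 and 839.8 TPM (939 ± 139.8). mt-Co3 thus varied most between the pools of the 3, and it is also the one most fully held by a copy, with 99.9% of its 100-nt windows shared. The share was 99.5% for mt-Co2 and 30.8% for mt-Co1.

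The copy of mt-Co1, Gm29216, covers bases 1063 to 1545 of the gene at 99.8% identity. It differs at 1 base near the start of that stretch, A1066T, counted from the 5′ end of mt-Co1. The base is in capitals.
mt-Co1, bases 1063 to 1096 (chrM:6390-6423, plus strand): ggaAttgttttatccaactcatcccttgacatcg
Gm29216 (chr1:24616155-24616188, minus strand): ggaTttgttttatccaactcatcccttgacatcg

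Complex V, ATP synthase, makes ATP with the proton gradient, and mt-Atp8 and mt-Atp6 encode parts of its membrane sector. They were the most abundant protein-coding genes of chromosome M as deposited. mt-Atp6 (chrM:7927-8607, 681 nt) had 4450 and 4493 TPM (4472 ± 30.2, SD, n = 2) and was the 15th most abundant mouse gene. mt-Atp8 (chrM:7766-7969, 204 nt) had 3315 and 3501 TPM (3408 ± 132) and was the 19th. The genes are carried on 1 shared mRNA and overlap by 43 nt, shown in capitals at the end of mt-Atp8 and at the start of mt-Atp6.
mt-Atp8, last 63 bases (chrM:7907-7969, plus strand): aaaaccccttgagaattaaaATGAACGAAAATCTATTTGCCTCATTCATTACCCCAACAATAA
mt-Atp6, first 63 bases (chrM:7927-7989, plus strand): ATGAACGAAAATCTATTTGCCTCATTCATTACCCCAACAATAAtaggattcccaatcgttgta
Although they share a transcript, their reads per nt of gene differed, at 53.7 and 52.5 for mt-Atp8 and 119.7 and 111.9 for mt-Atp6. The ratio of mt-Atp6 to mt-Atp8 was 2.23 and 2.13 in reads per nt but 1.34 and 1.28 in TPM. The effective length of mt-Atp8 is 105 nt, 99 fewer than its length, while that of mt-Atp6 is 582 nt. The level of mt-Atp8 relative to longer genes therefore depends more on the length correction than that of any other measured member.

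The order of the 15 measured genes by TPM was the same in both libraries. From the highest, it ran mt-Atp6, mt-Atp8, mt-Rnr2, mt-Nd1, mt-Co2, mt-Cytb, mt-Co1, mt-Co3, mt-Rnr1, mt-Nd4, mt-Nd2, mt-Nd6, mt-Nd5, mt-Nd3 and mt-Nd4l. In all 14 neighbouring pairs the values of both libraries were apart, and the gap between the means exceeded the SD of each gene, which with 2 libraries is a weak measure of spread. These comparisons do not cover how shared reads were divided, described further on. Nor do they cover the length correction, since the effective lengths are the same in both libraries. With annotated lengths the mean of mt-Rnr2 was 2351 TPM, above mt-Atp8 at 2010.5 TPM. On that scale mt-Nd6 was at 270.92 TPM and mt-Nd5 at 270.99 TPM. By the posterior mean TPM, mt-Co3 lay at 1789 and 1712 TPM, above mt-Nd1 at 1758 and 1702 TPM. Leaving out mt-Nd4l, the highest protein-coding level was 19.1 times the lowest in replicate 1 and 23.8 times in replicate 2.

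**Figure D1:**
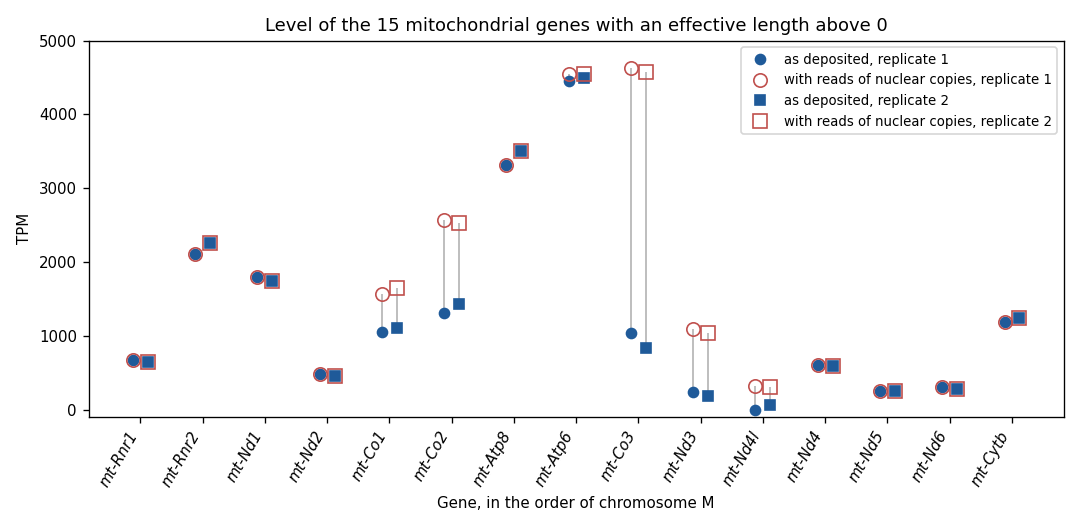
TPM (linear axis) of the 15 measured mitochondrial genes in the order of chromosome M, with circles for replicate 1 and squares for replicate 2. Filled symbols are the deposited values and open symbols include the reads of the nuclear copies. mt-Co3 lies at 1038 and 839.8 TPM as deposited and at 4634 and 4569 TPM with its copies, while 7 genes that share no window with an annotated gene have both symbols in 1 place.

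Many reads that match the mitochondrial genes were assigned to nuclear copies. Of the annotated nuclear genes in the tables, 15 matched a mitochondrial gene at 90% identity or more over at least 100 nt, and they held 134340 reads in replicate 1 and 124413 in replicate 2. That was 29.9% and 29.5% of the reads assigned to the mitochondrial genes themselves (29.7% ± 0.265, SD, n = 2), and 40.4% of those on the protein-coding ones in both libraries. With the copies added, the mitochondrial share was 2.68% and 2.71% of TPM and 1.55% and 1.57% of reads.

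Almost all of these reads, 99.98%, were on 7 neighbouring pseudogenes on the minus strand of chromosome 1 (chr1:24611535-24616197, 4663 nt). They follow the same order as the genes between positions 6390 and 11042 of chromosome M, from the end of mt-Co1 to the first part of mt-Nd4. For 5 of the 7 the aligned stretch was identical, and the other two are the copies of mt-Co1 and mt-Nd3 shown above. The remaining 8 copies had at most 15.4 reads in a library. The best counted of them were on chromosome 2, Gm13341, a copy of mt-Co2 at 95.9% identity with 10.9 and 15.4 reads, and Gm13340, a copy of mt-Co1 at 97.6% identity with 11.1 and 10.8 reads. mt-Atp8 also lies between positions 6390 and 11042 of chromosome M but has no annotated copy of its own. Whether the unannotated bases of the chromosome 1 stretch hold its sequence was not analysed.

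The division of reads between a gene and its chromosome 1 copy was uneven from gene to gene. Gm28437 took 77.6% and 81.6% of the reads of the mt-Co3 pair, with 77546 and 74423 reads. Gm28438 took 78.5% and 81.7% of the mt-Nd3 pair, and Gm10222 took 100% and 77.8% of the mt-Nd4l pair. In these 3 pairs the nuclear copy held more reads than the mitochondrial gene in both libraries.

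In the other 4 pairs the mitochondrial gene held more reads than the copy. Gm28661 took 49.1% and 43.7% of the mt-Co2 pair, and Gm29216 took 32.5% and 32.7% of the mt-Co1 pair, although it covers only the end of that gene. Scaled by its shorter length, Gm29216 was listed at 1871 and 1984 TPM, above mt-Co1. Gm10925, identical to mt-Atp6 over 678 nt, took 2.07% and 1.18%. Gm28439, identical to the first 876 nt of mt-Nd4, was listed at 0 and 3.14 reads, and it is named here after its values were seen. Copies of the same identity thus held from 0% to 100% of the reads of their pair.

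The posterior means gave other shares for the pairs of identical sequence. For Gm28437 the posterior mean share was 60.7% and 61.8%, for Gm28661 40.1% and 40.0%, and for Gm10925 14.9% and 13.9%. The posterior SD of the mt-Co3 count was 59.8% of its mean in replicate 1 and 69.3% in replicate 2, and the deposited interval of its TPM ran from 628 to 3548 and from 567 to 3786. For mt-Co2 the SD was 29.2% and 27.7% of the mean, and for mt-Atp6 it was 10.3% and 12.2%. For mt-Co1, whose copy covers only its end, it was 0.202% and 0.217%. In all, 5 genes (mt-Co2, mt-Atp6, mt-Co3, mt-Nd3 and mt-Nd4l) had a posterior SD above 1% of the mean, and 7 had a posterior SD of 0 reads.

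The sums over a gene and its copy did not depend on the division, by construction for reads that match only that pair. For mt-Co3 and Gm28437 the sum was 99916 and 91184 reads by both the expected and the posterior mean counts. For mt-Nd4l and Gm10222 it was 1982 and 1773 reads, and for mt-Nd3 and Gm28438 it was 8512 and 7500. For the 5 genes with a posterior SD above 1% of the mean, how many reads came from the gene and how many from its copy was not settled by these tables. mt-Co1 and mt-Nd4 had a smaller posterior SD, although 30.8% and 60.8% of their 100-nt windows are shared. Whether their reads were divided correctly was not tested.

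**Figure D2:**
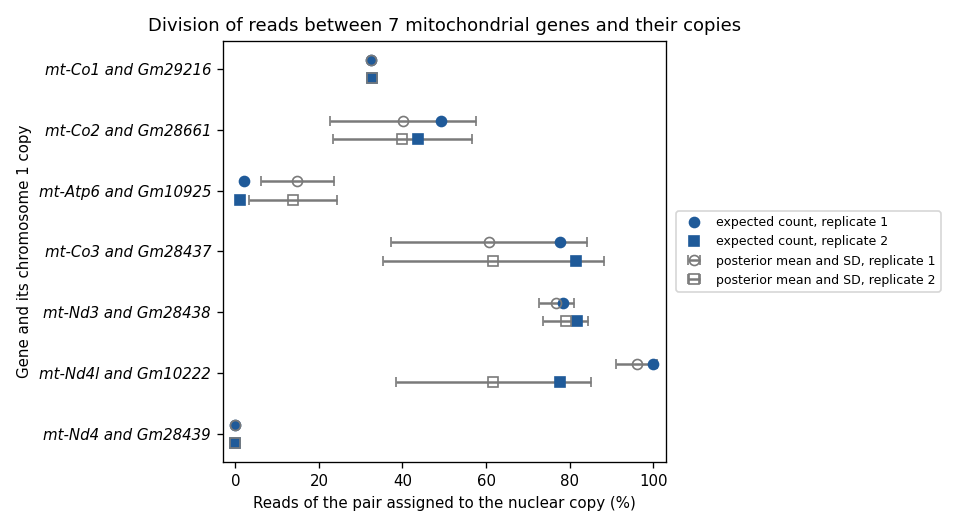
Share of the reads of each pair that was assigned to the nuclear copy (percent, linear axis), with circles for replicate 1 and squares for replicate 2. Filled symbols are expected counts and open symbols the posterior mean with its SD as a bar; the bars are widest for mt-Co3 and Gm28437, whose posterior mean shares are 60.7% and 61.8%.

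Crediting every read of the annotated copies to the mitochondrial gene gives the highest level the division allows, which is not a corrected level. With the reads of its copies counted over the effective length of the mitochondrial gene, mt-Co3 became the most abundant, at 4634 and 4569 TPM (4601 ± 46.3, SD, n = 2). It then lay 1.02 and 1.005 times above mt-Atp6, at 4545 and 4547 TPM, where the deposited ratio was 0.233 and 0.187. mt-Co2 reached 2569 and 2531 TPM (2550 ± 27.4) and mt-Co1 1563 and 1652 TPM (1607 ± 62.4), so that the 3 oxidase genes were no longer close in level. mt-Nd3 reached 1086 and 1034 TPM (1060 ± 37.1) and mt-Nd4l 318 and 307 TPM (313 ± 7.57).

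On this scale the genes ran in another order, again the same in both libraries and with no overlap between neighbours. mt-Co3, mt-Atp6, mt-Atp8, mt-Co2 and mt-Rnr2 led, and mt-Nd4l, mt-Nd6 and mt-Nd5 were lowest. mt-Nd4, which shares a transcript and an overlap of 7 nt with mt-Nd4l, was 1.92 times higher than it in both libraries. Both this ratio and the order rest on the effective lengths, which are the same in both libraries. Neither was computed with annotated lengths, so their dependence on the length correction was not tested. The range of protein-coding levels, now with mt-Nd4l, was 18.2-fold and 18.6-fold.

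Differences between the pools were small for the genes whose reads were not divided. A gene was counted as differing when the ratio of TPM + 0.1, replicate 1 over replicate 2, was 1.1-fold or more and the mean expected count at least 50. By this rule 3 of the 15 measured genes differed, 2 higher and 1 lower in replicate 1, where 32.2% of the 13017 genes tested did, 15.9% higher and 16.4% lower. Among genes with a mean TPM of at least 100, 4.47% of 1254 differed, and 2 of the 14 mitochondrial genes in that range did.

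The 3 genes were mt-Co3, mt-Nd3 and mt-Nd4l, whose copies held more reads than they did. The ratio was 1.24 for mt-Co3 (1.21 to 1.26) and 1.24 for mt-Nd3 (1.15 to 1.33), with exact 95% Clopper-Pearson intervals that cover counting error only and not the division of reads. For mt-Nd4l, listed at 0 in replicate 1, no ratio is given. With the copies added the ratios were 1.014 for mt-Co3 (1.005 to 1.024), 1.051 for mt-Nd3 (1.018 to 1.084) and 1.035 for mt-Nd4l (0.970 to 1.104), and no gene differed by the rule. For mt-Co2 the ratio passed from 0.917 (0.9004 to 0.933) to 1.015 (1.002 to 1.029), from lower to higher in replicate 1.

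The 7 genes that share no window with an annotated gene had ratios from 0.934 to 1.093. mt-Rnr2, at 0.934 (0.926 to 0.942), was the lowest and mt-Nd6, at 1.093 (1.044 to 1.145), the highest. mt-Rnr1, at 1.04 (1.02 to 1.06), went the other way from mt-Rnr2, which held for the deposited scale but not when the libraries were scaled by their spike-ins. The intervals of all measured members except mt-Atp6 and mt-Nd4l excluded 1 with the copies added, so these differences were larger than counting error, but a single library per pool leaves no measure of the spread beyond it.

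The direction of the ratios depended on the scaling. As deposited, 8 of the 15 genes were higher in replicate 1 and 7 lower, and the median log2 ratio was 0.04 against 0.01 for all genes tested. When the libraries were scaled by their spike-ins instead, every gene shifted by the same 0.12 on the log2 scale, by construction. All genes tested then had a median of 0.12 and the mitochondrial genes one of 0.16, with 13 higher and 2 lower. Of the 15, 9 were past 1.1-fold. The share of all genes tested past it under this scaling was not computed, so the 9 cannot be set against a background. With both the spike-in scaling and the copies added, all 15 were higher in replicate 1. Directions between the pools given here for single genes and lists are on the deposited scale.

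**Figure D3:**
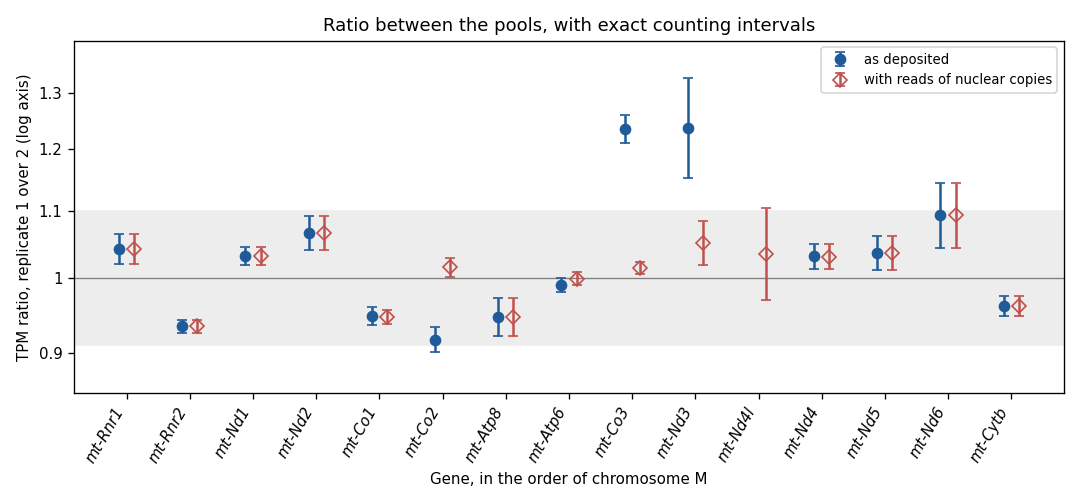
Ratio of TPM, replicate 1 over replicate 2 (log axis), of the measured mitochondrial genes with exact 95% intervals for counting error, the grey band marking less than 1.1-fold. Filled circles are deposited values and open diamonds include the copies; mt-Co3 and mt-Nd3 lie at 1.24 as deposited and inside the band with their copies, and mt-Nd4l has no deposited ratio because it is listed at 0 in replicate 1.

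Mitochondrial and nuclear subunits of the same complex were compared within each library. In complex I the median of the 7 mitochondrial genes was 1.52 and 1.42 times that of the 36 nuclear genes measured, which had medians of 201 and 197 TPM (ratio 1.47 ± 0.0718, SD, n = 2). With the copies added it was 2.39 and 2.28 times. Only mt-Nd1 and mt-Nd4 lay above the highest nuclear subunit gene, Ndufab1, whose product is also the mitochondrial acyl carrier protein, at 515 TPM. mt-Nd3 joined them once its copy was counted. Ndufa11, at 41.4 TPM, was the lowest nuclear gene of the complex, and Ndufc1 (478 TPM) and Ndufb9 (349 TPM) followed Ndufab1.

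In complexes III to V every mitochondrial subunit gene lay, as deposited, above all nuclear ones listed for the same complex. For mt-Co3 the division of reads leaves this unsettled, as its deposited interval began at 628 and 567 TPM, below Cox8a. mt-Cytb was 3.37 and 3.71 times the median of the 9 nuclear complex III genes (3.54 ± 0.243, SD, n = 2), which were led by Uqcr10 (614 TPM), Uqcrq (567 TPM) and Uqcr11 (531 TPM) and ended with Uqcrc2 (147 TPM). The 3 oxidase genes were 2.05 and 2.16 times the median of the 11 nuclear complex IV genes (2.11 ± 0.0753), and 4.9996 and 4.91 times with their copies. Cox8a (812 TPM), Cox6b1 (757 TPM) and Cox4i1 (697 TPM) were the highest and Cox7b (251 TPM) the lowest of that complex. mt-Atp6 and mt-Atp8 were 8.63 and 9.48 times the median of 16 nuclear complex V genes (9.06 ± 0.598), among them Atp5b, a catalytic subunit of the enzyme's head, at 1898 TPM, its inhibitor Atpif1 at 1766 TPM, Atp5g3 at 703 TPM and Atp5g2 at 103.6 TPM.

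Complex II, succinate dehydrogenase, has no mitochondrially encoded subunit, and its 4 genes had Sdhd at 292 TPM, Sdhb at 212 TPM, Sdha at 168 TPM and Sdhc at 127 TPM. By the 1.1-fold rule 2 nuclear complex I genes were higher and 1 lower in replicate 1, 1 gene each of complexes II and V was lower, and none of complexes III and IV differed. The share was 32.2% of all genes tested, but 4.47% of the 1254 with a mean TPM of at least 100, where most of these subunit genes lay.

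**Figure D4:**
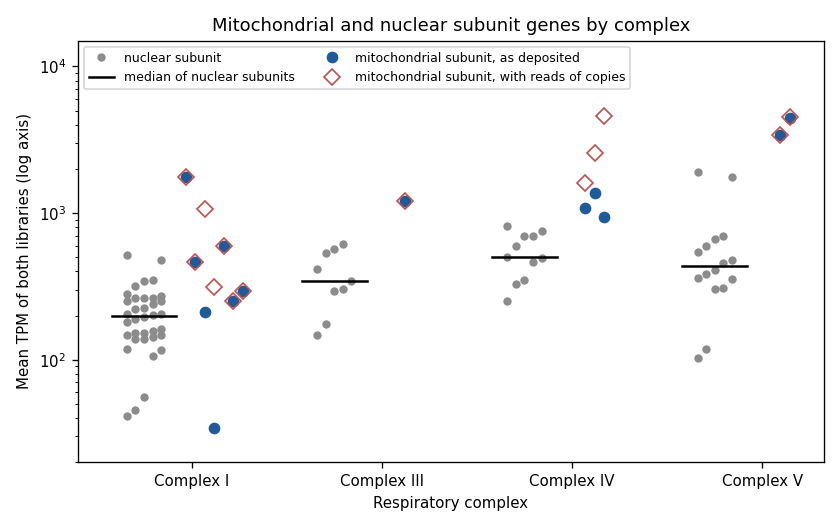
Mean TPM of both libraries (log axis) of nuclear subunit genes (grey points, with their median as a bar) and of mitochondrial subunit genes as deposited (filled) and with the reads of their copies (open diamonds), by respiratory complex. Both complex V genes of chromosome M lie above Atp5b at 1898 TPM, and mt-Nd4l is the lowest point of complex I as deposited.

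The nuclear genes that express the mitochondrial genome were at 1 TPM or more in both libraries wherever they were found. Each of the lists had a median under the level of every measured mitochondrial gene except mt-Nd4l as deposited, and above 12.7 TPM, the median over all genes at 1 TPM or more. Over the 234 nuclear genes of these lists and of the complexes, the SD between the libraries had a median of 2.83% of the mean and reached 37.1% for Mrpl23, at 28.9 and 16.9 TPM. The 15 genes of mitochondrial DNA transcription and upkeep had a median of 15.6 TPM. Mrpl12, a ribosomal protein also reported to bind the mitochondrial RNA polymerase, had 141 TPM, Ssbp1, which coats single-stranded DNA, 90.9 TPM and Tfam, the factor that packages the genome and starts transcription, 47.4 ± 5.30 TPM, while Mterf1b was lowest at 2.97 TPM. By the 1.1-fold rule 4 of these 15 were higher and 2 lower in replicate 1, beside 15.9% and 16.4% of all genes tested.

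The 25 genes found for processing, modification and stability of mitochondrial RNA had a median of 21.5 TPM. They were led by Slirp, a partner of the mRNA stability factor Lrpprc, at 186 TPM, Hsd17b10, a subunit of the RNase that cuts the 5′ ends of tRNAs, at 87.6 TPM, and Fastk at 65.6 TPM, with Fastkd1 lowest at 7.10 TPM. In replicate 1, 4 of the 25 were higher and 1 lower by the rule, where all genes tested had 15.9% and 16.4%. The 8 regulators of mitochondrial biogenesis had a median of 21.3 TPM, with Nrf1 at 49.3 TPM, Pprc1 at 31.5 TPM and Gabpb1 at 30.995 TPM, and the coactivator gene Ppargc1a was lowest at 2.01 TPM. None of the 8 differed by the rule, by which 32.2% of all genes tested did.

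Genes of mitochondrial translation stood higher for the ribosome than for its factors. The 80 ribosomal protein genes found had a median of 83.9 TPM, from Mrpl11 at 19.7 TPM to Mrps21 at 248 TPM and Mrpl17 at 293 TPM, with Mrpl52 at 226 TPM. Of the 80, 7 were higher and 1 lower in replicate 1 by the rule, beside 15.9% and 16.4% of all genes tested. Among genes with a mean TPM of at least 100, 4.47% differed in either direction. The median of the 12 translation factors was 19.02 TPM, the elongation factor genes being Tufm at 106 TPM, Tsfm at 64.2 TPM and Gfm1 at 49.2 TPM and the lowest, the release factor gene Mtrf1, being at 5.89 TPM. The 19 genes of mitochondrial aminoacyl-tRNA synthetases, which charge the tRNAs that could not be measured, had a median of 18.9 TPM. Lars2, for leucine, was highest at 662 and 667 TPM (664.5 ± 3.10, SD, n = 2), and Wars2, for tryptophan, was lowest at 3.61 TPM. Gars (149.8 TPM) and Kars (139.9 TPM) were next to Lars2, and both also serve the cytosol. In each of the last 2 lists 1 gene was higher and 1 lower by the rule, beside the same 15.9% and 16.4%.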

How the data were processed

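Gene and transcript tables of 2 total RNA libraries were used. The authors deposited expected counts (estimated reads, not normalized), posterior mean counts with their SD, TPM and FPKM on mm10 with GENCODE M4, per the file headers; no source used here names the quantifier or aligner. FPKM was not used. The effective length is the length minus 99 nt. The members and lists were chosen with earlier results of these data known.

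Shares, means and SDs over libraries, log2 ratios of TPM + 0.1 and exact 95% Clopper-Pearson intervals of rounded expected counts were computed (pandas 2.3.3, scipy 1.17.1), and the interval script was tested on simulated data. Without molecular identifiers, PCR copies of 1 molecule cannot be told from separate molecules, and the intervals and floors cover counting error only. Symbols were matched for 42462 of 43346 genes with GENCODE M21. Nuclear copies were M21 nuclear transcripts aligned by blastn 2.17.0 to the mitochondrial transcripts, not to the whole chromosome, so unannotated copies were not analysed here. Added copies' reads were divided by the member's effective length. Named were all measured members, copies with a mean count of at least 10, and of each list the 3 highest genes and the lowest; the tRNA genes shown were chosen by length. Mrpl33 was not analysed here, Fastkd4 is in its list as Tbrg4, and 1 erythroid marker is not reported here. Alternatives were the TMM scaling of edgeR 4.0.16, the size factors of DESeq2 1.42.0 (R 4.3.3), spike-in totals, other filters, lengths and thresholds, and single libraries.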

Additional observations from a re-analysis of the deposited data

How the results depend on the processing

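The share of TPM, 1.89%, was 2.00% without spike-ins and tRNA entries, 2.76% without globin genes and spike-ins, 1.78% with annotated in place of effective lengths and 2.69% with copies added. The share of reads, 1.21%, was 1.24% without spike-ins and tRNA entries and 1.56% with copies added. The rRNA over protein-coding level, 1.15, was 1.33 with annotated lengths, 1.54 by the median and 0.818 with copies added to each gene, a setting chosen, like the posterior mean TPM and a minimum mean of 100 TPM, after seeing the data. Adding copies moved the median level of the 15 genes from 939 to 1212 TPM, the log2 ratio of mt-Nd4l between the pools from -9.42 (with the pseudocount) to 0.049, and the mitochondrial over nuclear level from 1.47 to 2.34 in complex I and from 2.11 to 4.96 in complex IV. Means in place of medians gave 2.47 in complex I, 3.22 in complex III and 6.66 in complex V, where medians gave 1.47, 3.54 and 9.06. Spike-in scaling moved the median log2 ratio from 0.04 to 0.16 and the genes past 1.1-fold from 3 to 9, a larger fold threshold left 1 and adding copies left 0. That count was 2 with a higher minimum count, with the posterior mean TPM and with a minimum mean of 100 TPM. The share of all genes past the rule was 4.47% in the last of these settings and was not computed for the others. Leaving single libraries and the count past 1.1-fold aside, 17 alternatives kept a summary value within its spread or counting interval and 16 moved it. For single genes 91 kept it, 43 moved it and 1 reversed it. The ratio of mt-Nd4l had no counting interval, so every alternative for it counted as moved or reversed, however small the change. Spike-in scaling adds the same constant to every ratio, so its outcomes for single genes repeat a single change. With 2 libraries a single one always lies within the SD, so leaving one out says nothing about stability; mt-Nd4l was 0 TPM in one and 68.3 TPM in the other. The causes were not tested beyond what each setting changes by construction. No paired analysis was possible because the study has 1 group. Depth was no limit for the protein-coding and rRNA genes other than mt-Nd4l; their limits are the division of shared reads, the length correction for short genes, the absent tRNA measurement and 1 library per pool.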
